A study of Mus musculus with 6 samples.

Results

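Translation initiation and elongation factors are the soluble proteins that start and drive protein synthesis on the cytosolic ribosome. Their genes were selected by symbol, taking every gene whose name begins with Eif followed by a digit from 1 to 6, or with Eef followed by 1 or 2, and leaving out pseudogenes. This gave 68 of the 25031 genes in the count table, of which 66 were among the 15416 genes with enough counts to be tested. RNA was measured by mRNA sequencing in 6 kidney libraries, from C57BL/6 males of wild-type genotype that were 7 to 8 weeks old. All animals underwent 23 minutes of bilateral renal ischemia followed by reperfusion, a model of acute kidney injury. The CePPy group (3 libraries) received (+)CePPy, positively charged polypyrrole nanoparticles doped with cerium, intravenously at 5 mg/kg right after the injury. The vehicle group (3 libraries) received the same volume of saline after the same injury. No uninjured kidneys were analysed here, and the labels state neither the time of collection nor whether each library came from a separate animal. The p-values therefore measure the spread between libraries, part of which may be technical.

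In initiation, eIF2 carries the initiator tRNA to the small ribosomal subunit, where eIF1, eIF1A, eIF3 and eIF5 assemble with it. The eIF4 factors bind the mRNA cap and unwind the leader, and the 4E-binding proteins, which mTORC1 phosphorylates, block the cap-binding subunit eIF4E. Stress kinases phosphorylate eIF2 and so keep its exchange factor eIF2B from recycling it, which lowers general protein synthesis. In elongation, eEF1A delivers aminoacyl-tRNA and is recharged by the eEF1B complex, and eEF2 moves the ribosome along the mRNA. Many mRNAs of these factors belong to the class whose own translation responds to mTORC1. In the kidney, the proximal tubule is a main site of ischemic injury.

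Total counts were 29762157 to 37415213 per library, and 66 or 67 of the 68 genes had at least 1 count in each. Levels are given as CPM, the count of a gene as a share of its library scaled by the trimmed mean of M values, which corrects for library composition. Markers of the proximal tubule, thick ascending limb, collecting duct and podocyte were present in every library, as the kidney label requires, while the skeletal muscle list summed to at most 0.912 CPM. Over all genes, edgeR's quasi-likelihood test with Benjamini-Hochberg adjustment called 1 gene (0.00649% of those tested) at an adjusted p under 0.05, and DESeq2 called 1026. On the leading principal component (38.5% of the variance) the CePPy libraries lay at -56.8, -3.85 and -16.0 and the vehicle libraries at 29.8, 18.1 and 28.7, so that the second CePPy library stood nearest to the vehicle libraries.

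Most translation factor genes had slightly lower levels in the CePPy kidneys. The fitted log2 fold change of CePPy over vehicle was below 0 for 52 of the 66 tested genes, against 49.5% of all genes tested, and its median was -0.18, against 0.0030 over all genes. The 3 CePPy values all lay below the 3 vehicle values for 36 of the 66 genes, where 14.0% of all genes did so, and all above for 4 genes, where 12.3% of all genes did so. These 4 were Eif2ak3, Eif4ebp3, Eif5a2 and Eef1akmt1. None of the 66 passed edgeR's adjusted threshold, and the lowest adjusted p was 0.102. At an unadjusted p under 0.05, edgeR had 23 genes lower and 4 genes higher, against 9.37% and 9.65% of all genes. DESeq2, run as an alternative, called 8 of the 66 lower (Eif3d, Eif3i, Eif3l, Eif4ebp1, Eif5a, Eef1b2, Eef1d and Eef1g) at an adjusted p under 0.05, against 3.23% of all genes. It called 1 higher (Eif4ebp3), against 3.43% of all genes. A limma-voom fit that weights each library by its quality called 3 lower (Eif4ebp1, Eif5a and Eef1b2), against 1.32% of all genes, and 0 higher, against 0.960%.

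The size of the difference followed the library. Averaged over the 66 genes, log2 CPM minus the vehicle mean was -0.16, -0.040 and -0.16 in the CePPy libraries and -0.044, 0.039 and 0.0048 in the vehicle libraries. The second CePPy library (-0.0402) thus lay narrowly above the lowest vehicle library (-0.0436), while both other CePPy libraries lay below all vehicle libraries. The same average over all genes tested was 0.027, 0.033 and 0.044 in the CePPy libraries and 0.012, 0.013 and -0.025 in the vehicle libraries. Over all genes, the second CePPy library was above the first vehicle library by more than that narrow gap, so the overlap is not firm. Without the second CePPy library, edgeR called 8 of the 66 genes lower at an adjusted p under 0.05 (Eif3j1, Eif4a1, Eif4ebp1, Eif5a, Eif6, Eef1b2, Eef1d and Eef1g), against 2.19% of all genes, and 1 higher (Eif4a2), against 2.98% of all genes. The count of genes whose groups did not overlap was then 44 on the lower side, against 22.0% of all genes. DESeq2 called 19 lower without that library, against 6.38% of all genes, and 9 without CePPy library 1, against 3.20%. It called 4 without vehicle library 3, and 2 when CePPy library 3, vehicle library 1 or vehicle library 2 was left out, where 1.14 to 1.74% of all genes were called lower. The second CePPy library stood nearest to the vehicle libraries, so leaving it out tends to widen the differences. Calls made without it, here and for single genes below, are therefore no further evidence of a difference.

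**Figure D1:**
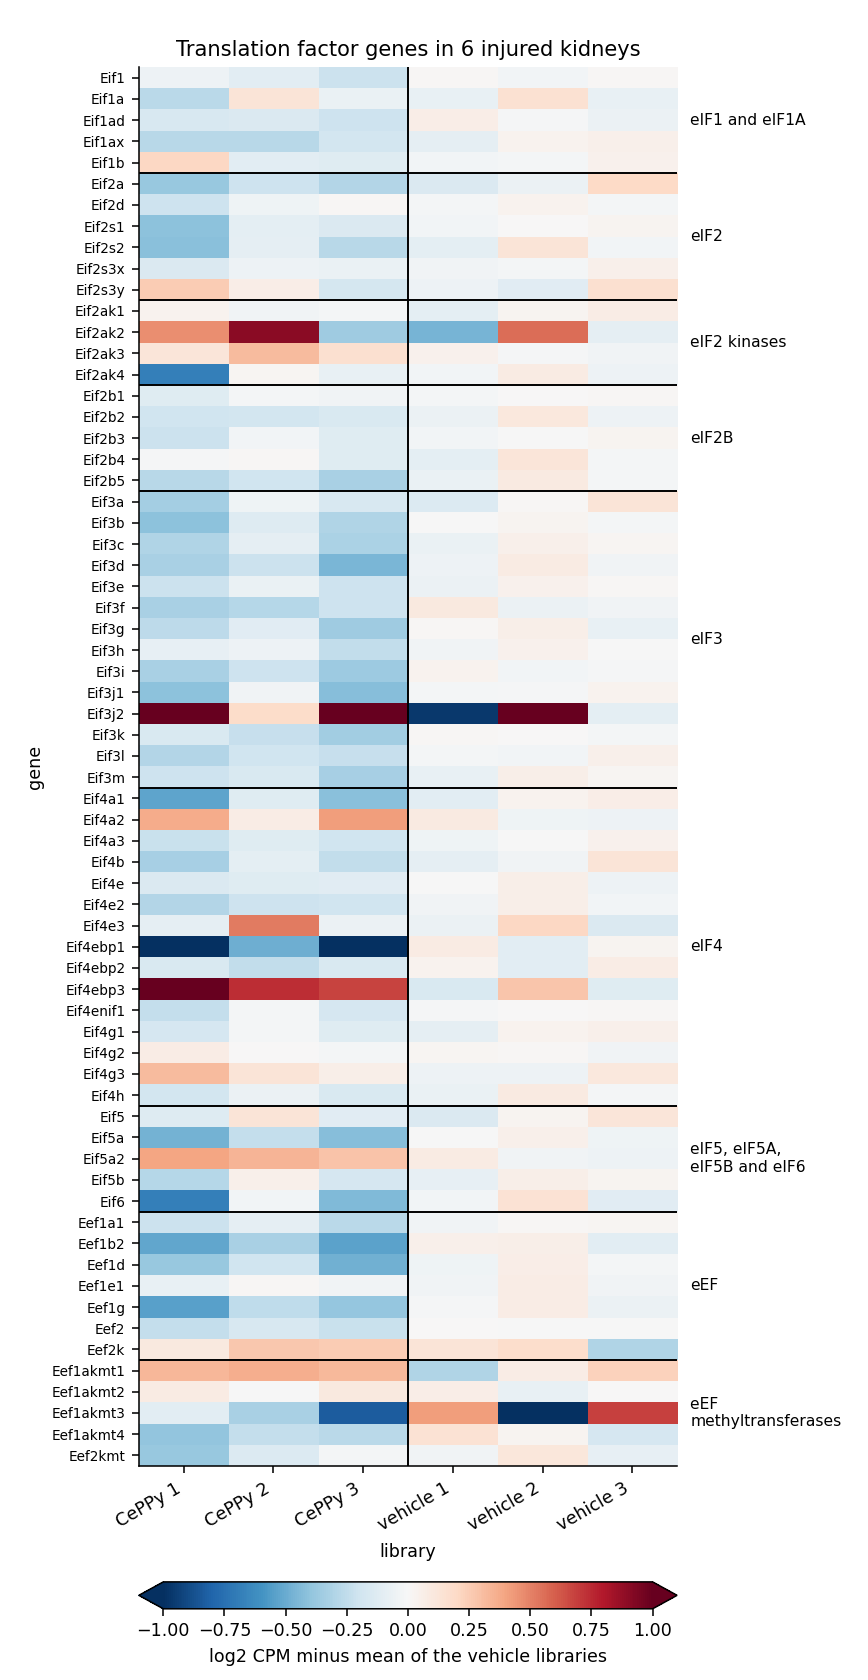
Level of each of the 66 tested translation factor genes (rows, grouped by factor complex) in each library (columns, CePPy left of vehicle), as log2 CPM minus the mean of the 3 vehicle libraries, with colours saturating at -1 and 1. Blue, meaning lower than the vehicle mean, fills most of the CePPy columns, most evenly in the eIF3 block and least in the second CePPy library, while Eif4ebp3, Eif5a2, Eif2ak3 and Eef1akmt1 are red in every CePPy library.

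The translation factor genes together took 1.49, 1.74 and 1.57% of all counts in the CePPy libraries and 1.84, 1.92 and 1.81% in the vehicle libraries, which gives 1.60 ± 0.128% and 1.86 ± 0.0573% (SD, n = 3 each). The groups did not overlap. More than any other group, the eEF genes carried this share, with 0.792, 0.923 and 0.822% in the CePPy libraries and 0.993, 1.03 and 0.966% in the vehicle libraries. Most of the eEF share was Eef1a1, with 6057 of 8333 CPM in CePPy library 1 and 6849 of 9710 CPM in vehicle library 1. The eIF3 genes took 0.166, 0.197 and 0.176% in the CePPy libraries and 0.211, 0.221 and 0.209% in the vehicle libraries. In a bulk sample, fewer cells of a type and less RNA of a gene per cell cannot be told apart.

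The summed levels of thick ascending limb, collecting duct, injured-tubule and neutrophil markers did not overlap between the groups, and those of proximal tubule markers did. The proximal tubule sum was mostly Kap, at 8290 to 13933 CPM in the CePPy libraries and 8336 to 9379 CPM in the vehicle libraries. Mean log2 CPM over a list, minus the vehicle mean, weights its genes equally. On that measure, proximal tubule markers were at 1.05, 0.11 and 0.61 in the CePPy libraries. The vehicle libraries were at -0.014, -0.051 and 0.064, so these groups did not overlap. The 5 injured-tubule markers (Havcr1, Lcn2, Krt20, Sox9 and Vcam1) summed to 1377, 3084 and 2079.6 CPM in the CePPy libraries and 3674, 3763 and 3506 CPM in the vehicle libraries, and 4 of the 5 were lower in every CePPy library. The 7 proximal tubule markers summed to 21478, 11637 and 14633 CPM in the CePPy libraries and 11212, 11163 and 12407 CPM in the vehicle libraries, with 3 of the 7 higher in every CePPy library, and the 4 thick ascending limb markers to 6196, 3366 and 4109.7 CPM in the CePPy libraries and 2597, 2907 and 2598 CPM in the vehicle libraries, with all 4 higher. The 5 collecting duct markers summed to 264.5 to 357.6 CPM in the CePPy libraries and 164.6 to 217 CPM in the vehicle libraries. The second CePPy library was again the CePPy library nearest to vehicle for the proximal tubule, thick ascending limb and injured-tubule lists. The neutrophil list was low, at 9.17, 21.4 and 15.1 CPM in the CePPy libraries and 32.2, 47.0 and 47.7 CPM in the vehicle libraries, with Ly6g at 0 counts in the second CePPy library, and the sums for proximal tubule, distal convoluted tubule, endothelium, podocyte, macrophage, lymphocyte, erythroid and adipocyte markers overlapped between the groups. By mean log2 CPM minus the vehicle mean, the distal convoluted tubule list did not overlap, although 0 of its 4 genes were apart singly. Its values were 2.03, 0.317 and 1.26 in the CePPy libraries and 0.0455, 0.0372 and -0.0827 in the vehicle libraries. Pvalb, at low counts, weighed heavily in this mean. It had 264, 12 and 88 counts in the CePPy libraries and 2, 11 and 5 in the vehicle libraries, a log2 fold change of 4.32. Slc12a3, Trpm6 and Calb1 had log2 fold changes of 0.18, 0.39 and 0.99. The part of cell composition and of tubule injury in the levels of the translation factor genes was not tested.

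**Figure D2:**
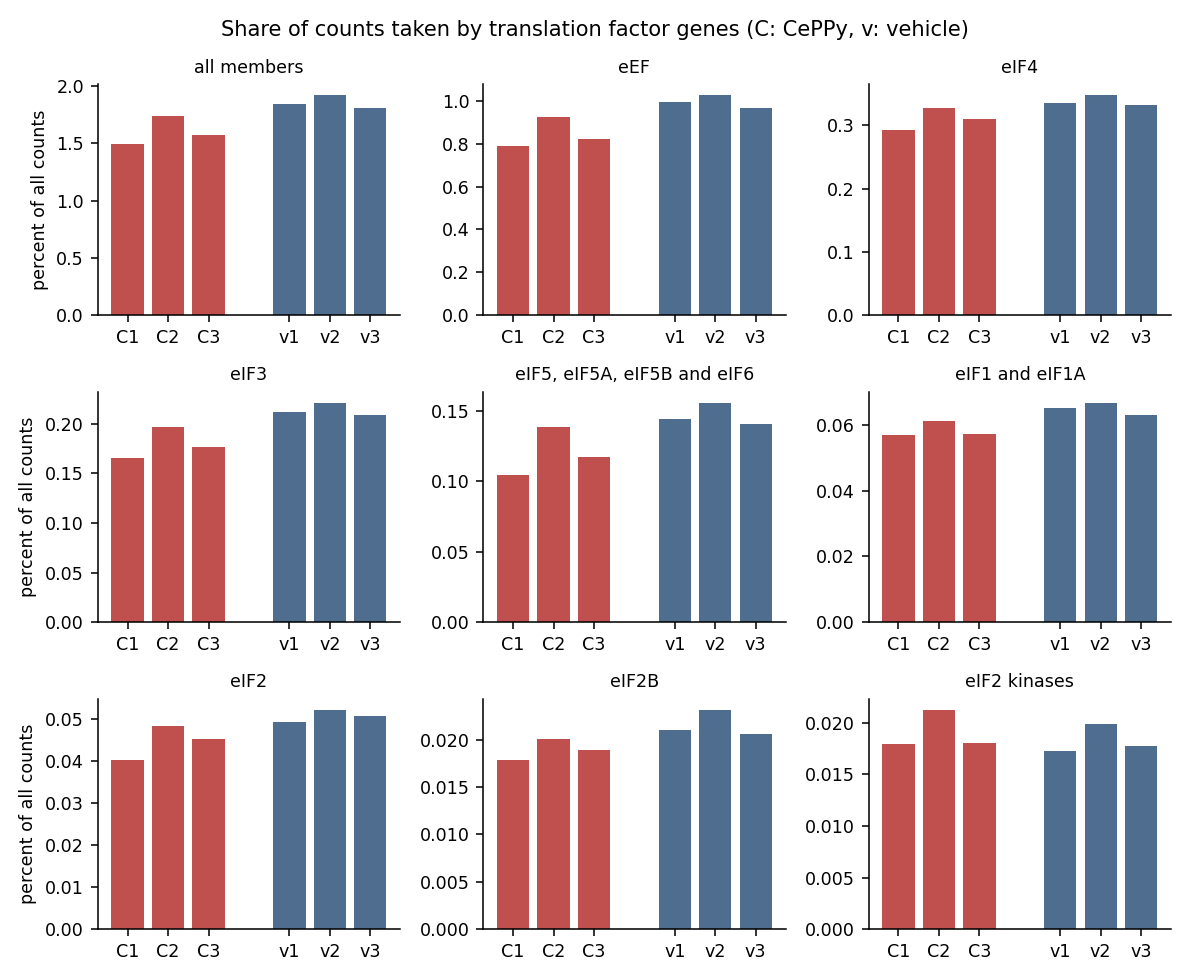
Percent of all counts of a library (vertical axes, each starting at 0) taken by all 68 translation factor genes and by 8 of their 9 groups, with 1 bar per library, CePPy (C1 to C3, red) left of vehicle (v1 to v3, blue). Each CePPy bar is shorter than each vehicle bar in the panels for all members, eEF, eIF4, eIF3, eIF5 to eIF6, eIF1 and eIF1A, eIF2 and eIF2B, and the bars overlap for the eIF2 kinases.

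Promoter sequences are shown for some eIF3 and elongation factor genes that had lower values in every CePPy library. Each sequence shown holds a match to at least 1 of 5 short motifs, so the display does not represent all such genes. Of these motifs 3 occurred in a larger share of the promoters of all members than of promoters at large, a difference given here without a test. Windows of 250 bases before to 50 after each RefSeq transcript start on GRCm38.p6 were found for 52 of the 68 genes by symbol, 27025 genes had such a window, and a gene was counted when any of its windows held the motif. The 27025 genes were not limited to those tested here, and genes with several windows had more chances of a match. The shares therefore cannot be read as a trait of translation factor genes in particular. An ETS-type motif (CCGGAAG, either strand) was in the window of 17 of the 52 members (32.7%), against 9.93% of all genes, and an E-box (CACGTG, its own reverse complement) in 13 of the 52 (25.0%), against 8.09%. The antioxidant response element core (TGACNNNGC, either strand) was in 12 members (23.1%), against 14.0%, the cyclic AMP response element (TGACGTCA, its own reverse complement) in 1 (1.92%), against 2.03%, and the ATF4-type element (TGATGCAA, either strand) in 0, against 1.03%. The ETS-type motif was present in 13 of the 30 members with a window whose groups did not overlap and were lower under CePPy, and in 4 of the other 22. The E-box was present in 7 of the 30 and in 6 of the 22, and the antioxidant response element core in 6 of the 30 and in 6 of the 22. These are matches of letters and were not tested as binding sites. The lines below run 5′ to 3′ from 100 bases before the start to 20 bases after it, in lower case, with every match to a motif in capitals. In Eef2 the first capital run is an antioxidant response element core on the minus strand that overlaps an E-box, and the second run is the cyclic AMP response element.
Eif3c (chr7:126566347-126566466, minus strand): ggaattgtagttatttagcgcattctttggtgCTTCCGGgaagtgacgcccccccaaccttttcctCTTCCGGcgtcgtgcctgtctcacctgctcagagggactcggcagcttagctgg
Eif3d (chr15:77970805-77970924, minus strand): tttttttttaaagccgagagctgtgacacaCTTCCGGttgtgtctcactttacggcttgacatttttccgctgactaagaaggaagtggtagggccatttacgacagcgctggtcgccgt
Eif3l (chr15:79075123-79075242, plus strand): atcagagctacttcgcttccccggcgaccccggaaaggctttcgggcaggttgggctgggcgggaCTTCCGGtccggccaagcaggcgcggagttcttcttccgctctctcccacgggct
Eif3f (chr7:108934315-108934434, plus strand): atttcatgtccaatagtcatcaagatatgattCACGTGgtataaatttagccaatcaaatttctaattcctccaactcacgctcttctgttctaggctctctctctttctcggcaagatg
Eif3k (chr7:28981869-28981988, minus strand): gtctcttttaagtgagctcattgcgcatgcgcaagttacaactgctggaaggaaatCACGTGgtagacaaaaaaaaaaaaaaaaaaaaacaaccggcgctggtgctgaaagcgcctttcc
Eef1b2 (chr1:63176731-63176850, plus strand): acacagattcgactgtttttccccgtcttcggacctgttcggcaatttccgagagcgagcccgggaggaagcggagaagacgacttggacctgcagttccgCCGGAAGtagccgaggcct
Eef2 (chr10:81176531-81176650, plus strand): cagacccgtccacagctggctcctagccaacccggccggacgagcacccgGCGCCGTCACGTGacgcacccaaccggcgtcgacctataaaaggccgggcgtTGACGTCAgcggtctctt
The capitals in Eif3c, Eif3d, Eif3l and Eef1b2 are ETS-type motifs, in Eif3c at 2 places, and those in Eif3f and Eif3k are E-boxes. Over the same span, Eif3b and Eef1a1, also lower in every CePPy library, held no match and are not shown. Eif3g, Eif3j1 and Eif3m, lower likewise, held a match and are not shown either.

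The eIF1 and eIF1A genes, grouped by name, had a median log2 fold change of -0.12 over 5 genes, 4 of them below 0. In 3 of the 5 the CePPy values were lower without overlap, against 14.0% of all genes. Eif1, the start codon selection factor, had 351, 338 and 312 CPM in the CePPy libraries and 366, 356 and 366 CPM in the vehicle libraries, with every CePPy value under every vehicle value and a log2 fold change of -0.12 ± 0.083, where ± gives the SE (edgeR adjusted p = 0.453), and of -0.072 without CePPy library 3. Eif1ax, the X-linked eIF1A gene, had 88.1, 88.2 and 93.8 CPM in the CePPy libraries and 100.3, 109 and 111 CPM in the vehicle libraries. Its groups did not overlap, at a log2 fold change of -0.25 ± 0.077 (edgeR adjusted p = 0.163). Eif1a, the other eIF1A gene, overlapped between the groups, with 79.7, 105 and 91.7 CPM in the CePPy libraries and 91.0, 107 and 91.0 CPM in the vehicle libraries. Eif1ad, named for its eIF1A-like domain, had 37.6, 38.0 and 36.4 CPM in the CePPy libraries and 44.1, 41.6 and 40.4 CPM in the vehicle libraries, again without overlap. Eif1b, a close relative of Eif1, had 32.7 to 41.2 CPM in the CePPy libraries and 35.1 to 36.8 CPM in the vehicle libraries, and its log2 fold change was 0.0011.

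The eIF2 genes had a median log2 fold change of -0.15 over 6 genes, with 5 below 0. The subunit that the stress kinases phosphorylate, eIF2α, is encoded by Eif2s1, which had 70.4, 87.7 and 84.9 CPM in the CePPy libraries and 92.1, 93.8 and 95.2 CPM in the vehicle libraries. All CePPy values were under all vehicle values, and the first CePPy library was the lowest, with a log2 fold change of -0.21 ± 0.10 (edgeR adjusted p = 0.285) that was -0.12 without that library. The β subunit gene Eif2s2 had 89.8, 113 and 99.1 CPM in the CePPy libraries and 112, 131 and 118 CPM in the vehicle libraries, and here the second CePPy library was higher than the first vehicle library. The γ subunit, which binds GTP, has an X-linked and a Y-linked gene. Eif2s3x had 129, 138 and 136 CPM in the CePPy libraries and 139, 141 and 148 CPM in the vehicle libraries, without overlap, and Eif2s3y had 48.4, 42.5 and 35.9 CPM in the CePPy libraries and 39.1, 37.5 and 45.3 CPM in the vehicle libraries, with overlap. Of the 50-base words of Eif2s3x, 34.6% also occur in transcripts of other genes, foremost Gm2223. Eif2a encodes a separate initiator-tRNA binding protein, not eIF2α, and had 51.1, 57.7 and 54.1 CPM in the CePPy libraries and 60.0, 63.9 and 76.3 CPM in the vehicle libraries, a log2 fold change of -0.30 ± 0.11 (edgeR adjusted p = 0.195) that was -0.19 without vehicle library 3. Eif2d, whose product also lies outside the eIF2 complex, had a log2 fold change of -0.077 with overlapping groups.

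Of the 4 eIF2 kinase genes 2 had a log2 fold change above 0 and 2 below, with a median of 0.10. Eif2ak3 encodes PERK, the kinase that responds to unfolded protein in the endoplasmic reticulum, and had 49.8, 56.8 and 51.2 CPM in the CePPy libraries and 47.1, 45.4 and 44.7 CPM in the vehicle libraries. Each CePPy value was above each vehicle value, with a log2 fold change of 0.20 ± 0.080 (edgeR adjusted p = 0.229). Eif2ak4, which encodes the amino acid sensor GCN2, had 11.5, 18.6 and 17.4 CPM in the CePPy libraries and 18.0, 19.4 and 17.7 CPM in the vehicle libraries, and only the first CePPy library stood clear below the rest, with a log2 fold change of -0.21 that was -0.022 without it. Eif2ak2, which encodes the double-stranded RNA sensor PKR, ranged from 18.2 to 43.4 CPM in the CePPy libraries and from 16.8 to 34.1 CPM in the vehicle libraries, the widest spread within groups of the 4. Eif2ak1, which encodes the heme-regulated kinase, had 90.8 to 95.5 CPM in the CePPy libraries and 86.9 to 97.7 CPM in the vehicle libraries.

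All 5 genes of the exchange factor eIF2B had log2 fold changes below 0, with a median of -0.12. In 3 of them the CePPy values were lower without overlap, against 14.0% of all genes. Eif2b5 encodes the catalytic ε subunit and had 69.1, 73.2 and 66.9 CPM in the CePPy libraries and 80.1, 89.1 and 82.7 CPM in the vehicle libraries. The groups were clearly apart, with a log2 fold change of -0.27 ± 0.078 (edgeR adjusted p = 0.148, DESeq2 adjusted p = 0.0718). Eif2b2, the β subunit gene, had 37.8, 38.2 and 39.1 CPM in the CePPy libraries and 41.7, 46.8 and 42.1 CPM in the vehicle libraries. Eif2b1, the α subunit gene, differed less, with 34.0, 36.4 and 36.0 CPM in the CePPy libraries and 36.5, 37.1 and 37.2 CPM in the vehicle libraries. Eif2b3 and Eif2b4 overlapped between the groups, at log2 fold changes of -0.12 and -0.040.

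The eIF3 complex, the largest initiation factor and the platform that joins mRNA, small subunit and the other factors, gave the most even pattern. Of its 14 genes, 13 had a log2 fold change below 0, and in 12 every CePPy value was below every vehicle value. The median was -0.24, and 10 of the 14 had an unadjusted edgeR p under 0.05, all lower, against 14.0% of all genes with lower values that did not overlap and 9.37% with a lower level at that p. Eif3i encodes a WD-repeat subunit and had 121, 131 and 118 CPM in the CePPy libraries and 155, 149 and 150.3 CPM in the vehicle libraries. Its log2 fold change was -0.30 ± 0.077 (edgeR adjusted p = 0.126, DESeq2 adjusted p = 0.0195). Eif3d, whose product can bind the mRNA cap, had 104, 112 and 94.4 CPM in the CePPy libraries and 125, 138 and 127 CPM in the vehicle libraries, a log2 fold change of -0.33 ± 0.089 (edgeR adjusted p = 0.135, DESeq2 adjusted p = 0.0330). Eif3l, which encodes another subunit, had 153, 162 and 159 CPM in the CePPy libraries and 184, 183 and 193 CPM in the vehicle libraries, a log2 fold change of -0.24 ± 0.074 (edgeR adjusted p = 0.160, DESeq2 adjusted p = 0.0475). In all 3 genes the lowest vehicle library was above the highest CePPy library.

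Eif3f, which encodes one of the MPN-domain subunits of the core, had 123, 127 and 133 CPM in the CePPy libraries and 165, 148 and 150.2 CPM in the vehicle libraries, with a log2 fold change of -0.27 ± 0.080 (edgeR adjusted p = 0.151). Eif3a encodes the large scaffold subunit and was the least separated of the single-copy subunits, with 209.7, 258 and 238 CPM in the CePPy libraries and 241, 267 and 290.2 CPM in the vehicle libraries. Its second CePPy library lay above the first vehicle library. The remaining subunit genes Eif3b, Eif3c, Eif3e, Eif3g, Eif3h, Eif3j1, Eif3k and Eif3m had log2 fold changes from -0.28 to -0.12, all with groups that did not overlap. The exception in sign was Eif3j2, with 13.1, 7.26 and 18.4 CPM in the CePPy libraries and 3.29, 13.4 and 5.97 CPM in the vehicle libraries. Its values overlapped widely, and 91.8% of its 50-base words also occur in transcripts of its near-identical copy Eif3j1, so the split of reads between these 2 genes is uncertain. The share of words found in transcripts of other genes was 36.9% for Eif3j1, 20.3% for Eif3h and 17.2% for Eif3m. Exons of Eif3d overlap those of an antisense gene, Gm17638, over 43.3% of their length, and the labels do not say whether counting used strand. The same limit holds for Eif3j1, whose exons overlap Spg11 on the other strand over 19.0%. Outside eIF3 it holds for Eif1ad (Banf1, 15.3%), Eif1b (D830035M03Rik, 12.7%), Eif5b (Rev1, 16.8%) and Eef2kmt (Alg1, 17.6%).

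**Figure D3:**
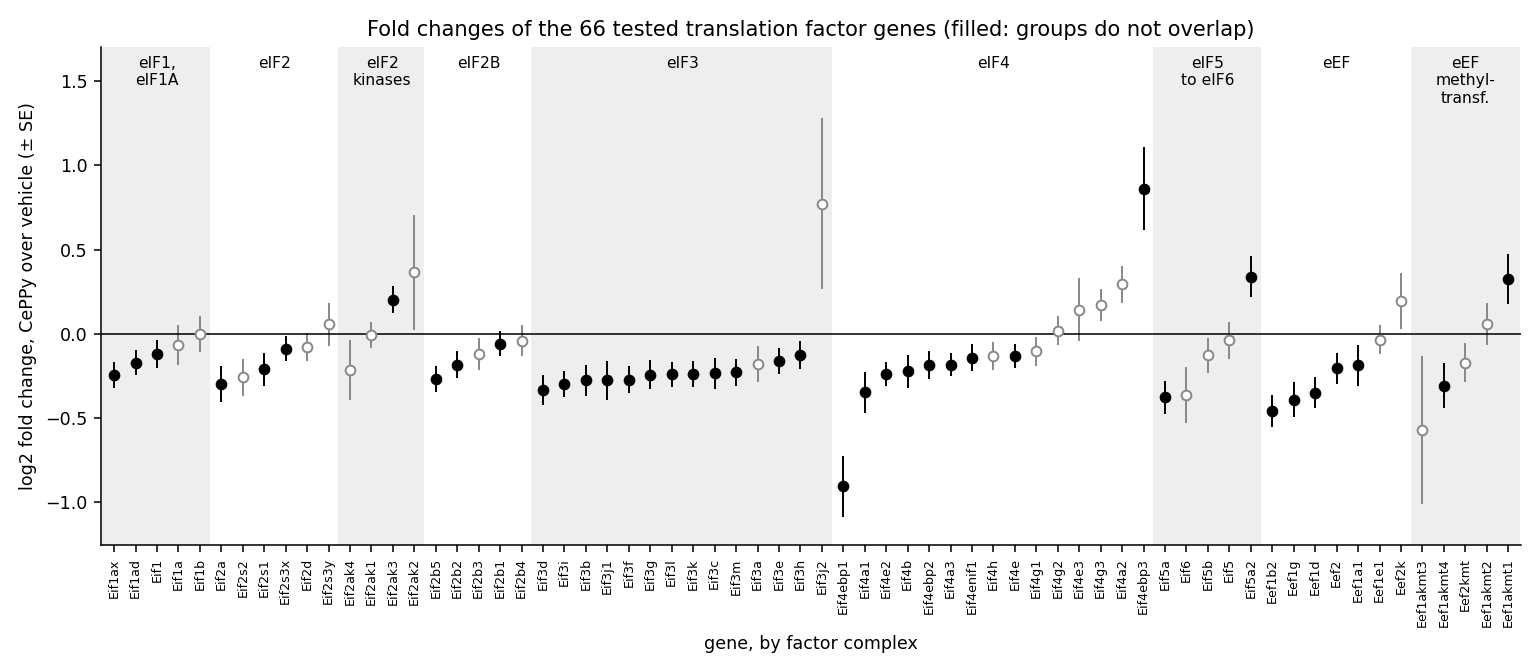
Log2 fold change of CePPy over vehicle with its standard error (vertical axis) for the 66 tested translation factor genes (horizontal axis), grouped by factor complex and sorted within each group. Filled symbols mark genes whose 3 CePPy and 3 vehicle values do not overlap, open symbols those that overlap, and the eIF3 genes other than Eif3j2 form a narrow band between -0.33 and -0.12.

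Within eIF4, the 4E-binding protein genes differed in sign and size. Eif4ebp1 (ENSMUSG00000031490, chromosome 8, 27260329 to 27276674, plus strand, on GRCm38 as annotated by GENCODE M21, like the coordinates of other genes) encodes the 4E-BP1 repressor that binds eIF4E until mTORC1 phosphorylates it. It had 32.0, 50.7 and 31.6 CPM in the CePPy libraries and 75.3, 66.3 and 72.5 CPM in the vehicle libraries, or 38.1 ± 10.9 CPM in the CePPy libraries and 71.4 ± 4.64 CPM in the vehicle libraries (SD, n = 3 each). All CePPy values were below all vehicle values, and the second CePPy library lay between the other 2 CePPy libraries and the vehicle group. The log2 fold change was -0.90 ± 0.18, the lowest of the 66 genes, with an edgeR adjusted p of 0.102 and a DESeq2 adjusted p of 0.000257. Without the second CePPy library it was -1.17, with an edgeR adjusted p of 0.00654. Over the leave-one-out fits it ranged from -1.17 to -0.78.

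Eif4ebp2, another family member, differed less between the groups, with 188, 176 and 188 CPM in the CePPy libraries and 213, 194 and 219 CPM in the vehicle libraries. Its groups did not overlap, and its log2 fold change was -0.18 ± 0.083 (edgeR adjusted p = 0.282). Eif4ebp3, the remaining member, had low counts and the opposite sign, with 4.56, 3.40 and 3.27 CPM in the CePPy libraries and 1.84, 2.47 and 1.87 CPM in the vehicle libraries. Its log2 fold change was 0.86 ± 0.25 (edgeR adjusted p = 0.145, DESeq2 adjusted p = 0.0407), the highest of the 66. Of its 50-base words, 65.5% also occur in transcripts of the overlapping gene AC115631.1 on the same strand, so the gene its reads come from is uncertain. DESeq2 no longer called it when CePPy library 1, CePPy library 3, vehicle library 1 or vehicle library 3 was left out.

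The target of these repressors, the cap-binding protein gene Eif4e, had 114, 116 and 116 CPM in the CePPy libraries and 126, 131 and 121 CPM in the vehicle libraries. The groups did not overlap but the difference was small, at -0.13 ± 0.071 (edgeR adjusted p = 0.362). Eif4e2, which encodes a related cap-binding protein that represses translation, had 60.7, 64.3 and 64.6 CPM in the CePPy libraries and 72.7, 77.7 and 72.9 CPM in the vehicle libraries, a log2 fold change of -0.24 ± 0.071 (edgeR adjusted p = 0.158). Eif4e3 overlapped, with 13.3, 20.2 and 13.5 CPM in the CePPy libraries and 13.5, 16.3 and 12.8 CPM in the vehicle libraries. Eif4e1b, known as a germline form in the ovary, had 0 counts in all 6 libraries and was not tested. A count of 0 allows up to 3 counts, or 0.0802 to 0.101 CPM of the library totals, for counting error only. Eif4enif1, which encodes a transporter of eIF4E into the nucleus, had a log2 fold change of -0.14 without overlap.

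**Figure D4:**
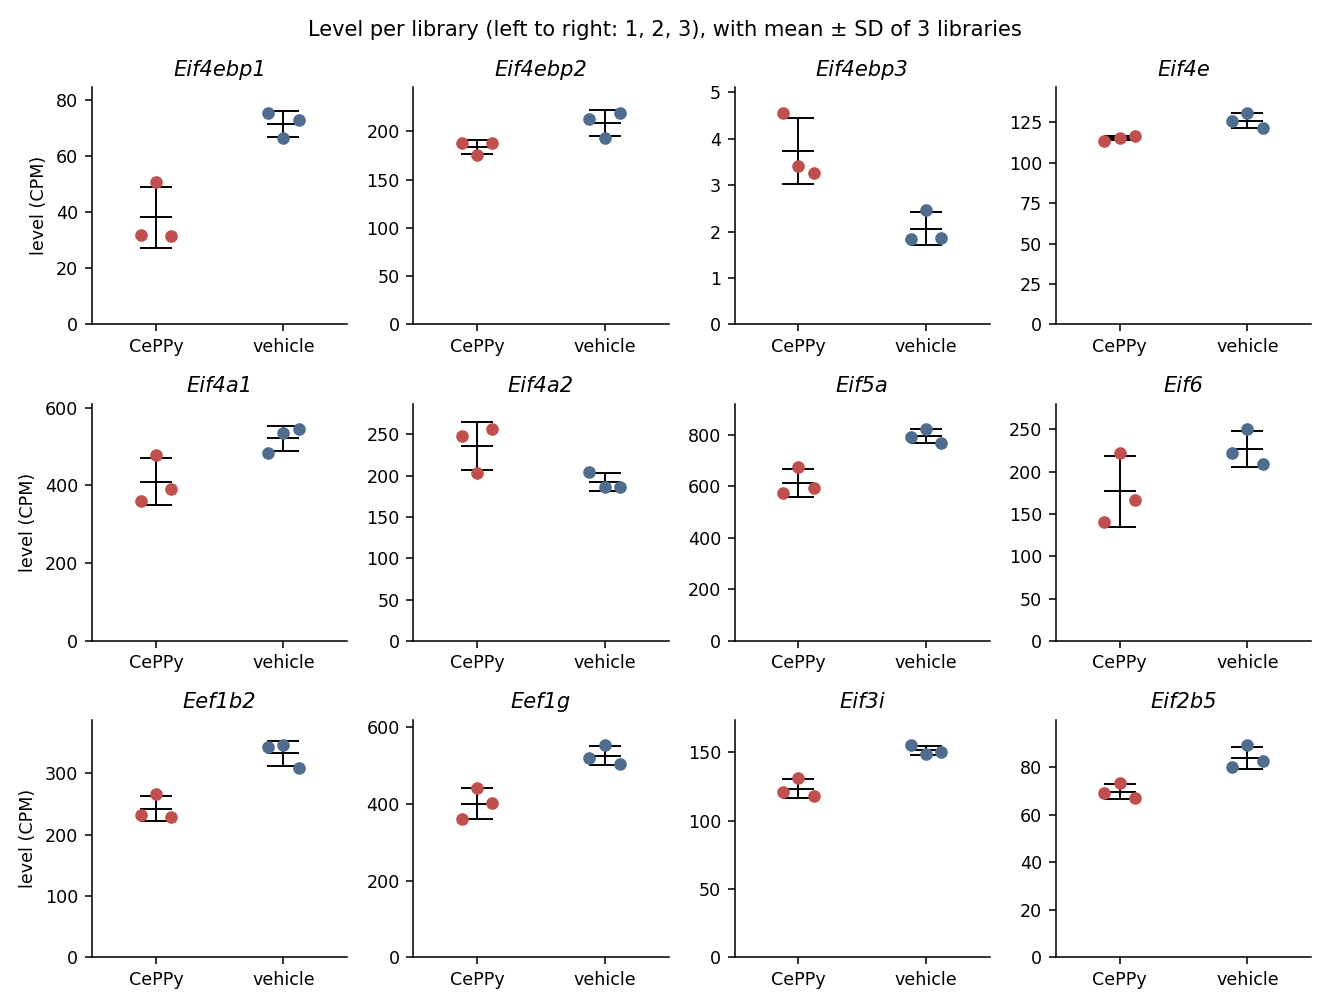
Level in CPM (vertical axes from 0) of 12 translation factor genes in the 3 CePPy libraries (red) and the 3 vehicle libraries (blue), with libraries 1, 2 and 3 in order from left to right within a group and the mean ± SD in black. Eif4ebp1 shows the largest gap relative to its level, Eif4ebp3 and Eif4a2 are higher on the CePPy side, and in Eif6 and Eif4a2 the second CePPy library falls within the vehicle range.

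The helicase genes of eIF4 also differed in sign. Eif4a1 encodes the main eIF4A helicase and had 361, 478 and 389.7 CPM in the CePPy libraries and 484, 534 and 545 CPM in the vehicle libraries. The groups did not overlap, and the log2 fold change was -0.35 ± 0.12 (edgeR adjusted p = 0.193, DESeq2 adjusted p = 0.0806). Eif4a2, its close paralog, had 248, 203 and 256 CPM in the CePPy libraries and 204, 187 and 186 CPM in the vehicle libraries. CePPy libraries 1 and 3 were above all vehicle libraries and CePPy library 2 fell just under the highest of them, with a log2 fold change of 0.29 ± 0.11 (edgeR adjusted p = 0.205). Without the second CePPy library, edgeR gave Eif4a1 an adjusted p of 0.0440 (log2 fold change -0.47) and Eif4a2 one of 0.0484 (0.39). Over the leave-one-out fits the log2 fold change ranged from -0.47 to -0.26 for Eif4a1 and from 0.23 to 0.39 for Eif4a2. The omission of the library nearest to vehicle thus gave the largest difference for both genes. Both genes host small nucleolar RNAs, and 28.4% of the 50-base words of Eif4a1 also occur in other genes' transcripts, foremost of the gene named Eif4a-ps4. Eif4a3, which works in the exon junction complex rather than in initiation, had 73.1, 78.3 and 74.4 CPM in the CePPy libraries and 83.0, 85.2 and 87.9 CPM in the vehicle libraries, without overlap. The helicase cofactor genes Eif4b and Eif4h had log2 fold changes of -0.22 and -0.13.

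Among the scaffold genes of the cap complex, Eif4g1 had 405, 447 and 417 CPM in the CePPy libraries and 427, 466 and 471 CPM in the vehicle libraries and its paralog Eif4g3 had 129.6, 114 and 108 CPM in the CePPy libraries and 100.2, 100.1 and 112 CPM in the vehicle libraries. Both overlapped between the groups, with log2 fold changes of -0.10 and 0.17. Eif4g2 encodes the relative that lacks the eIF4E binding site and had 889.8 to 952 CPM in the CePPy libraries and 882 to 917 CPM in the vehicle libraries.

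Eif5a (ENSMUSG00000078812, chromosome 11, 69916714 to 69921958, minus strand) encodes the hypusine-containing factor that helps the ribosome through difficult peptide bonds, and its level per exon length ranked next after Eef1a1 and Eef2 among the 68 genes. It had 573, 674 and 593 CPM in the CePPy libraries and 794, 823 and 770.3 CPM in the vehicle libraries, with the groups well apart. The log2 fold change was -0.38 ± 0.10 (edgeR adjusted p = 0.127, DESeq2 adjusted p = 0.00496). Its paralog Eif5a2 had 11.1, 10.7 and 10.3 CPM in the CePPy libraries and 8.97, 8.27 and 8.17 CPM in the vehicle libraries, with every CePPy value above every vehicle value and a log2 fold change of 0.34 ± 0.12 (edgeR adjusted p = 0.198). Eif6 encodes the factor that keeps free large subunits from joining small ones, and had 141, 222 and 167 CPM in the CePPy libraries and 222, 250.1 and 209 CPM in the vehicle libraries. Its second CePPy library lay within the vehicle range, while both other CePPy libraries were below it, and the log2 fold change of -0.36 ± 0.16 (edgeR adjusted p = 0.282) was -0.56 without that library (edgeR adjusted p = 0.0455) and -0.22 without CePPy library 1 (edgeR adjusted p = 0.446). Eif5, the activator of GTP hydrolysis on eIF2, and Eif5b, the GTPase that joins the subunits, overlapped between the groups at -0.037 and -0.13.

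The elongation factor genes held the highest levels. Eef1a1, which encodes the tRNA carrier eEF1A, stood at 2470.2 CPM per kilobase in the CePPy libraries and 2813 CPM per kilobase in the vehicle libraries, ahead of Eef2 at 478 CPM per kilobase in the CePPy libraries and 551 CPM per kilobase in the vehicle libraries, both levels per exon length. In CPM, Eef1a1 had 6057, 6594 and 5824 CPM in the CePPy libraries and 6849, 7074 and 7117 CPM in the vehicle libraries. The groups did not overlap, and the log2 fold change was -0.19 ± 0.12 (edgeR adjusted p = 0.422), with 39.4% of its 50-base words also found in other genes' transcripts. Eef2, the translocase gene, had 1553, 1639 and 1572 CPM in the CePPy libraries and 1839.6, 1828 and 1823 CPM in the vehicle libraries. All CePPy libraries were lower than all vehicle libraries, with a log2 fold change of -0.21 ± 0.092 (edgeR adjusted p = 0.278, DESeq2 adjusted p = 0.0564). Eef1a2, the muscle and neuron form of eEF1A, had 0, 2 and 0 counts in the CePPy libraries and 7, 0 and 4 counts in the vehicle libraries and was not tested, and no fold is given at such counts.

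The genes of eEF1B, the exchange factor of eEF1A, were among the most clearly separated of the set. Eef1b2 (ENSMUSG00000025967, chromosome 1, 63176825 to 63180486, plus strand), which encodes the catalytic eEF1Bα subunit, had 231, 266 and 229 CPM in the CePPy libraries and 344, 345 and 308 CPM in the vehicle libraries. The highest CePPy library was below the lowest vehicle library, and the log2 fold change was -0.46 ± 0.10 (edgeR adjusted p = 0.102, DESeq2 adjusted p = 0.000914). Eef1g, the structural γ subunit gene, had 359.7, 441 and 401 CPM in the CePPy libraries and 519, 552 and 503 CPM in the vehicle libraries, a log2 fold change of -0.39 ± 0.10 (edgeR adjusted p = 0.128, DESeq2 adjusted p = 0.00880). Eef1d, which encodes the other catalytic subunit, had 101, 115 and 94.8 CPM in the CePPy libraries and 128, 138 and 130.2 CPM in the vehicle libraries, a log2 fold change of -0.35 ± 0.092 (edgeR adjusted p = 0.130, DESeq2 adjusted p = 0.0269). All 3 subunit genes were thus lower in each CePPy library, and for Eef1g 44.2% of the 50-base words also occur in transcripts of other genes. Eef1e1 carries an eEF1 name but its product sits in the scaffold of the multi-synthetase complex, and it had 22.4, 23.8 and 23.1 CPM in the CePPy libraries and 23.1, 24.9 and 23.1 CPM in the vehicle libraries, with overlap. Eef2k, which encodes the kinase that inactivates eEF2, had 8.02, 9.01 and 8.93 CPM in the CePPy libraries and 8.19, 8.45 and 6.06 CPM in the vehicle libraries, also with overlap.

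The genes of the enzymes that methylate elongation factors had low levels and no common direction. Eef1akmt1 had 15.0, 15.4 and 15.0 CPM in the CePPy libraries and 9.69, 12.6 and 14.0 CPM in the vehicle libraries, higher in each CePPy library at a log2 fold change of 0.32 ± 0.15 (edgeR adjusted p = 0.279) that was 0.19 without vehicle library 1. Eef1akmt4 averaged 9.59 ± 0.542 CPM in the CePPy libraries and 11.9 ± 1.31 CPM in the vehicle libraries (SD, n = 3 each), lower in each CePPy library, with 27.9% of its words shared with the overlapping gene Gm49333. Eef2kmt, Eef1akmt2 and Eef1akmt3 overlapped, and Eef1akmt3 ranged from 1.41 to 4.87 CPM within the vehicle group alone.

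Ratios between related genes were taken within each library, from CPM plus 0.5, and 10 such pairs were compared. In 6 pairs the groups did not overlap, each with a two-sided exact permutation p of 0.1, the smallest that 3 against 3 libraries can give, and 0.167 after Benjamini-Hochberg adjustment over the 10 pairs. The log2 ratio of Eif4ebp1 over its target Eif4e was -1.81, -1.18 and -1.86 in the CePPy libraries and -0.73, -0.98 and -0.74 in the vehicle libraries, a difference of -0.80. The ratio of Eif4ebp1 over Eif4ebp2 differed by -0.75 on the same scale. Both ratios were lower in every CePPy library, least in the second. The ratio of Eif5a2 over Eif5a was -5.62, -5.91 and -5.78 in the CePPy libraries and -6.39, -6.55 and -6.47 in the vehicle libraries, a difference of 0.70. The ratio of Eif4a2 over Eif4a1 was -0.54, -1.24 and -0.60 in the CePPy libraries and -1.24, -1.51 and -1.55 in the vehicle libraries, a difference of 0.64, where the second CePPy library was just above the highest vehicle library. Eef2k over Eef2 differed by 0.40 and Eif4g3 over Eif4g1 by 0.27, both higher in each CePPy library. The difference for Eef2k over Eef2 was 0.26 without vehicle library 3, and that for Eif4g3 over Eif4g1 was 0.17 without CePPy library 1. Eif1b over Eif1, Eif2s3y over Eif2s3x and Eif3j2 over Eif3j1 overlapped, at differences of 0.12, 0.14 and 1.13, and the last was 0.70 without vehicle library 1. The remaining pair, Eef1a2 over Eef1a1, also overlapped, and its difference is not read because Eef1a2 was near 0 counts.

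**Figure D5:**
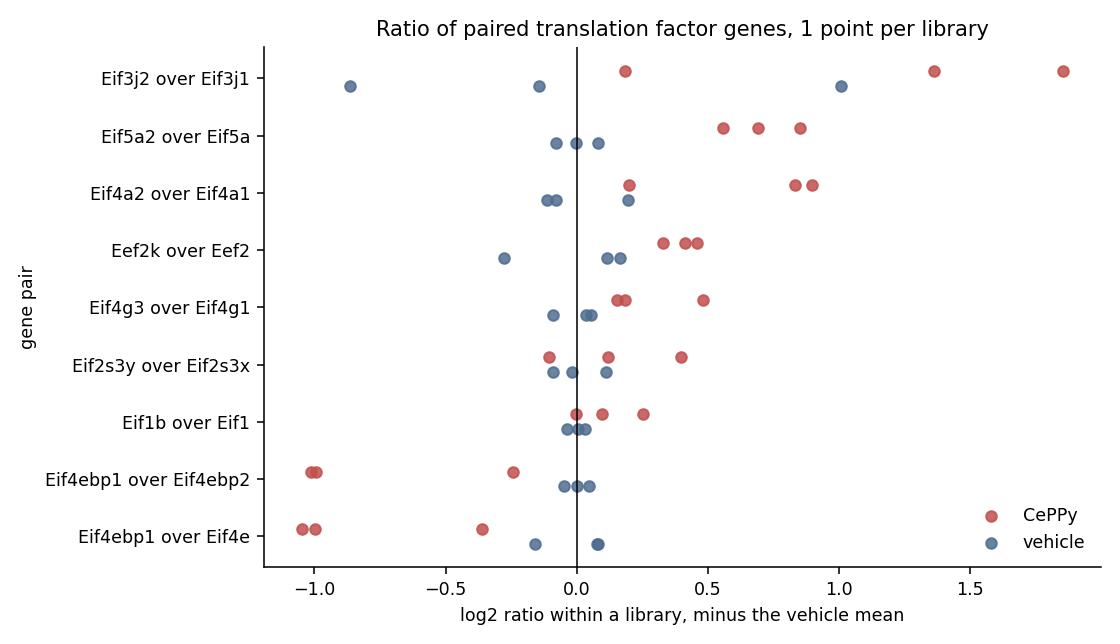
Log2 ratio of CPM between the genes of 9 pairs within each library, minus the mean of the vehicle libraries (horizontal axis), with 1 point per library and CePPy (red) above vehicle (blue) in each row. The red points lie right of the blue points for Eif5a2 over Eif5a, Eif4a2 over Eif4a1, Eef2k over Eef2 and Eif4g3 over Eif4g1, and left of them for both Eif4ebp1 pairs.

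Genes that modify, regulate or work beside these factors were examined as 7 further lists, and edgeR called 0 genes in any of them at an adjusted p under 0.05. Their other counts stand against 49.5% of all genes with a log2 fold change below 0, 9.37% lower and 9.65% higher at an unadjusted edgeR p under 0.05, and 3.23% called lower and 3.43% called higher by DESeq2. A single gene in a list of 9 or 10 is near the unadjusted shares. The hypusine and diphthamide enzymes, which modify eIF5A and eEF2, had log2 fold changes below 0 in 9 of 9 genes (median -0.23), 1 with an unadjusted edgeR p under 0.05 and none called by DESeq2. Among them Dohh, which completes hypusine on eIF5A, had 33.3, 32.0 and 29.6 CPM in the CePPy libraries and 40.7, 37.7 and 37.5 CPM in the vehicle libraries, without overlap, and Dph3 and Dph6 had log2 fold changes of -0.16 and -0.28. The aminoacyl-tRNA synthetases and their scaffold were below 0 in 22 of 22 genes (median -0.17), with 7 at an unadjusted edgeR p under 0.05 and 0 called by DESeq2. The scaffold genes Aimp1 and Aimp2 had log2 fold changes of -0.37 ± 0.11 and -0.39 ± 0.13, and the arginyl-tRNA synthetase gene Rars -0.31 ± 0.11. The termination and recycling factors were below 0 in 8 of 8 genes (median -0.12), with 0 at an unadjusted p under 0.05 by edgeR and 0 called by DESeq2, and their named members Abce1, Gtpbp1 and Gspt1 had log2 fold changes of -0.19, -0.16 and -0.12.

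The other lists had no common direction. Of 18 further initiation cofactors 9 were above and 9 below 0 (median 0.01), and DESeq2 called 1 higher and 2 lower. Pabpc4, a cytoplasmic poly(A)-binding protein gene, had 55.0, 69.3 and 65.2 CPM in the CePPy libraries and 92.9, 83.9 and 92.1 CPM in the vehicle libraries, a log2 fold change of -0.50 ± 0.10 (edgeR adjusted p = 0.102, DESeq2 adjusted p = 0.00205). Its relative Pabpc1 had a log2 fold change of -0.44 ± 0.15, and Paip2b, which encodes an inhibitor of poly(A)-binding protein, one of 0.45 ± 0.11. Of 18 genes of mTORC1 and MNK signalling 6 were above and 12 below 0 (median -0.04), and DESeq2 called 1, lower. This was Ddit4, which encodes an inhibitor of mTORC1, with 18.5, 36.1 and 32.5 CPM in the CePPy libraries and 52.1, 52.8 and 73.0 CPM in the vehicle libraries, a log2 fold change of -1.03 ± 0.25 (edgeR adjusted p = 0.117, DESeq2 adjusted p = 0.00130). Akt1s1 and Rheb, an inhibitory subunit and an activator of mTORC1, had -0.23 and -0.16.

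Of 13 genes of eIF2 dephosphorylation and the integrated stress response, 7 were above and 6 below 0 (median 0.01). Dnajc3, which encodes an inhibitor of PERK and PKR, had 214, 185 and 218 CPM in the CePPy libraries and 139, 148 and 144 CPM in the vehicle libraries, with a log2 fold change of 0.51 ± 0.089 (edgeR adjusted p = 0.0832, DESeq2 adjusted p = 5.62e-05). It was the only gene of that list called by DESeq2, and Gcn1l1, the partner of the kinase GCN2, and Nck1 had log2 fold changes of -0.23 and 0.16. The 10 mitochondrial translation factor genes, which serve the separate ribosome of that organelle, were above 0 in 6 and below 0 in 4 (median 0.04), with 0 called by DESeq2 and 1 at an unadjusted edgeR p under 0.05. Tsfm and Mrrf had log2 fold changes of -0.21 and -0.20, and Mtif3 had 0.26.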

How the data were processed

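The deposited values were raw read counts per gene, made by the authors and not normalized. Per the submitters' processing notes, TopHat2, Cufflinks and DESeq were used with GRCm38, with the versions, the counting program, its strand setting and its treatment of reads with several matches, all of them not given in the sources used here. Per the labels' protocols, total RNA was made into mRNA libraries. Sample titles gave the groups and replicate numbers. Here the counts were fitted with edgeR 4.0.16 in R 4.3.3 over all 6 libraries (filterByExpr, TMM, quasi-likelihood test, treatment as the only term, Benjamini-Hochberg over 15416 genes, threshold 0.05), with the SE taken as the fold change over the root of its F value. Of the genes tested, 945 were unannotated loci of the count table. The alternatives were DESeq2 1.42.0, limma 3.58.1 (voom with and without sample weights), other scalings, no filter, a replicate block and each library left out. The scripts were tested on simulated data. Replicate numbers did not pair the libraries (correlations of deviations -0.15, 0.098 and -0.021), and no libraries were duplicates. Gene coordinates and shared 50-base words came from GENCODE M21, and promoters from RefSeq (GRCm38.p6). Over 10% of the words were shared for 15 of the 68 genes, Eif1 (19.2%) among them. Within each group the 4 genes with the lowest edgeR p and a mean of at least 1 CPM were named, besides fixed members, with 3 per list. Further members were named after their values were seen, so that each is accounted for. Ratios used CPM plus 0.5. The members and lists were chosen with earlier results of these data known. A further gene among those most like Eif4ebp1 is not reported here.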

Additional observations from a re-analysis of the deposited data

How the results depend on the processing

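The 66 tested translation factor genes kept a median log2 fold change between -0.21 and -0.14 under all alternatives, those without 1 library included. The number of genes called over all genes was 1026 with DESeq2, 352 with limma-voom and sample weights, 63 with no filter on low counts, 0 without the unannotated loci, 0 with the replicate block and 0 to 811 when 1 library was left out. Of the translation factor genes, DESeq2 called 9, limma-voom with sample weights 3, and the leave-one-out fits of edgeR 0 to 9, where the 9 came without the second CePPy library; limma-voom without weights, no filter, other scalings and the block called 0. The following counts, with 1 library left out, were added after the data were seen. DESeq2 called 2 to 19 translation factor genes lower, against 1.14 to 6.38% of all genes, and 0 to 1 higher. Log2 fold changes were below 0 for 49 to 53 of them. Non-overlapping lower values were found for 36 to 44, against 17.7 to 22.0% of all genes. With the replicate block, which the numbers do not warrant, the median was -0.18. The median of eIF1 and eIF1A moved to -0.15 with library totals only and to -0.17 with sample weights, and ranged from -0.17 to -0.072 with 1 library left out. That of the methyltransferases moved to -0.096 with sample weights and ranged from -0.25 to -0.075. Of 602 comparisons for 43 named genes, 576 kept direction and side of the threshold, 19 crossed it, and 7 reversed. The reversals were Eif1a without CePPy library 1 or vehicle library 2 (main value -0.065, range -0.17 to 0.033 with 1 library left out), Eif2ak1 without CePPy library 2 or 3 or vehicle library 2 or 3 (-0.0055, range -0.054 to 0.029) and Eef1e1 without vehicle library 2 (-0.034, range -0.057 to 0.0038). All 3 genes had fold changes near 0, and the cause was not tested. The difference between the groups in the log2 ratio of Eef1a2 over Eef1a1 was -0.023, and -1.04 with 1 count added in place of 0.5 CPM, and cannot be read at counts of 0 to 7. Leaving out 1 library moved the log2 fold change of 18 of the 43 named genes by over 1.5 times or past 0, among them Eif2b3 (-0.070 without CePPy library 1), Eif3a (-0.10 without CePPy library 1) and Eif5b (-0.051 without CePPy library 1 and -0.23 without CePPy library 2). Library totals in place of scaled sizes shifted the median of all genes by -0.025. Depth limits the values of Eif4ebp3, Eif4e1b and Eef1a2.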

Other observations

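Outside the translation factors, the genes whose log2 CPM followed Eif4ebp1 most closely over the 6 libraries included Apold1, Dhx15, Rflnb and Med27, with Pearson r from 0.994 to 0.998. The 6 points share the libraries and their 2 groups, so such values are a description of these libraries. Apold1, which encodes an endothelial protein, averaged 2.85 ± 0.615 CPM in the CePPy libraries and 5.00 ± 0.348 CPM in the vehicle libraries (SD, n = 3 each). Rflnb averaged 46.0 ± 6.47 CPM in the CePPy libraries and 66.8 ± 2.15 CPM in the vehicle libraries, a log2 fold change of -0.54. Dhx15, an RNA helicase gene, and Med27, a Mediator subunit gene, had smaller log2 fold changes of -0.11 and -0.27.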
